A study of Mus musculus with 2 samples.

Results

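The genes described here are 8 that mark cardiac fibroblasts: Pdgfra, Tcf21, Dpt, Gsn, Ddr2, Thy1, Mfap5 and Dpep1. They were taken by symbol, with no filter on their values, from the 55536 mouse genes of the deposited gene tables, and all 8 were found. The choice was made with earlier results of these data known. The tissue was the heart of 4-day-old male mice of strain B6CASTF1/J, the F1 offspring of C57BL/6J and CAST/EiJ, with no treatment named in the labels. Total RNA was sequenced in 2 stranded libraries depleted of ribosomal RNA, with ERCC spike-ins added to 300 ng of starting RNA. The labels give them different animal numbers and sample records but the same donor record, so if both came from 1 animal the spread reported here is technical. Both libraries belong to 1 group, which leaves no contrast between conditions and no test across samples.

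Fibroblasts make and organise the collagen network of the heart. Most of those in the ventricle descend from the epicardium, the outer cell layer of the heart, and they expand during late gestation and after birth. They are recognised by a combination of genes rather than by 1 marker: a growth factor receptor (Pdgfra), a transcription factor needed for their formation (Tcf21), a receptor for collagen (Ddr2), a surface glycoprotein (Thy1), proteins they secrete into the matrix (Dpt and Mfap5), an actin-binding protein that is also secreted (Gsn) and a membrane dipeptidase (Dpep1). None of these is made by fibroblasts alone, and in RNA from whole tissue fewer cells of a type and less RNA per cell cannot be told apart.

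Sequences are shown first for the genes on which the results turn. Dpt and Tcf21 lay at opposite ends of the difference between the libraries, and Gsn was read from 2 start sites. The promoters are RefSeq's, on build GRCm38.p6, and run from 250 bases before the start listed there to at most 30 bases past the most upstream annotated start nearby. Capitals mark CANNTG, the E-box letters bound by basic helix-loop-helix proteins, the family to which TCF21 belongs, and TATAAA on either strand. The Dpt stretch is chr1:164796413-164796673 on the plus strand, the Tcf21 stretch is chr10:22820145-22820393 on the minus strand, and the Gsn stretches are chr2:35256109-35256388 (upstream start) and chr2:35282130-35282409 (downstream start), both on the plus strand.
Dpt promoter: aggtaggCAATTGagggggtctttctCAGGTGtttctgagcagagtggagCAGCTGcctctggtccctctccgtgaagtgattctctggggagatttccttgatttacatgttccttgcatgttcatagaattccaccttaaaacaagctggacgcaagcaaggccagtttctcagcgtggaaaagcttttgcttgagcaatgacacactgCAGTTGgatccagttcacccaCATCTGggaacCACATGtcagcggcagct
Tcf21 promoter: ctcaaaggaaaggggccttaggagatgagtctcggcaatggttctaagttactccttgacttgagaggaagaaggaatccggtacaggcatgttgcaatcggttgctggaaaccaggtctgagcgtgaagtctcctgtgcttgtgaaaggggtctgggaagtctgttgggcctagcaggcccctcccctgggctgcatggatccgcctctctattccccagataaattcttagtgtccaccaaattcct
Gsn upstream promoter: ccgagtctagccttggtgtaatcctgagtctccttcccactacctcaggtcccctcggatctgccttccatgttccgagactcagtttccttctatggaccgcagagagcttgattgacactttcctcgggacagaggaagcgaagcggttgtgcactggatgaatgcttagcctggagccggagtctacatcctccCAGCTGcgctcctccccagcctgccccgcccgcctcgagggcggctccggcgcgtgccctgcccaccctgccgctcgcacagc
Gsn downstream promoter: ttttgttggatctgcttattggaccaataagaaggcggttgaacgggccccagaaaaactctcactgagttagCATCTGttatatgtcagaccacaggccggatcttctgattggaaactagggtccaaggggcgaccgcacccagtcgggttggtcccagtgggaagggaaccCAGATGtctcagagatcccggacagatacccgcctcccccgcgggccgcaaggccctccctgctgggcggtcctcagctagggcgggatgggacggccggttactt

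RefSeq promoter entries were matched for 6 of the 8 genes, in 8 windows of 300 bases, and Thy1 and Mfap5 had no entry. CANNTG, which reads the same on both strands, was in 7 of these 8 windows and in 72.3% of all 32851 windows of that length. The exception was the Tcf21 window. The Dpt window held 7 matches, of which 6 fall in the stretch printed above, and 0.177% of all windows held at least as many, against a median of 1 match per window. This share was computed for the Dpt window alone, which held the most matches of the 8. CAGCTG, 1 of the forms of CANNTG, was in 4 of the 8 windows and in 16.3% of all. TATAAA on either strand was in 2 of the 8 and in 13.6% of all, and CCAAT on either strand was in 2 of the 8 and in 37.4% of all. Both windows with CCAAT belonged to Gsn, as did some of those with CAGCTG. These are counts of letters in a window, and no binding was measured.

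All 8 genes were expressed, taken here as at least 1 TPM in both libraries (TPM is abundance per transcript length, scaled to the library, so that levels can be compared between genes). Of all protein-coding genes, 53.9% passed the same threshold. The mean levels ran from 3.93 TPM for Dpep1 to 70.0 TPM for Dpt, and the median over the 8 genes was 17.1 TPM. The summed level was 193.7 TPM in replicate 1 and 242.5 TPM in replicate 2. For comparison, the cardiomyocyte genes Myl2, a ventricular myosin light chain, and Myh6, a myosin heavy chain, had means of 8469 ± 459 and 7935 ± 1029 TPM (SD, n = 2), which fits tissue labelled as heart. In the order of mean TPM, from Dpt through Gsn, Mfap5, Tcf21, Pdgfra, Ddr2 and Thy1 to Dpep1, only the neighbours Dpt and Gsn had values that overlapped between libraries in the first quantification. The authors deposited 2 quantifications of each library, and levels here come from the first unless stated. The order was not the same in the second, where Thy1, at 18.2 and 15.9 TPM, lay above Ddr2, at 11.2 and 9.53 TPM, and overlapped Pdgfra, at 17.0 and 19.0 TPM. In the first, Pdgfra and Ddr2 were barely apart, since the lower Pdgfra value was 11.83 TPM and the higher Ddr2 value 11.53 TPM.

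**Figure D1:**
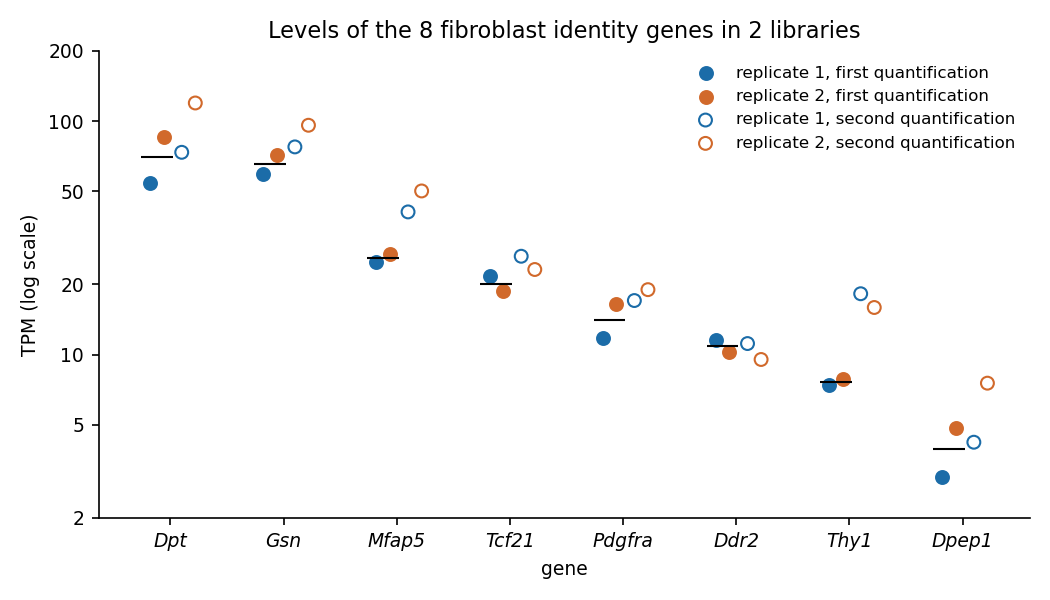
TPM on a log axis for each of the 8 genes, ordered by mean. Filled points are the first deposited quantification and open points the second, blue for replicate 1 and orange for replicate 2, and the black line is the mean of the 2 filled points. Dpt and Gsn lie highest at means of 70.0 and 65.4 TPM, Dpep1 lies lowest at 3.93 TPM, and the open points of Thy1 and Mfap5 sit well above their filled points.

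Mouse genes took 31512596 expected counts in the first library and 35744013 in the second, and spike-ins 0.588% and 0.545% of the counts. Over 16271 genes that passed the filter on low counts, the spread beyond counting error, edgeR's common biological coefficient of variation, was 15.2%. The libraries share a donor record, so this value cannot be assigned to differences between animals. Differences between the libraries are log2 ratios of replicate 2 over replicate 1 from counts scaled by TMM, so a positive value means higher in replicate 2. Their median absolute size was 0.19 over all filtered genes and 0.16 over the 12062 genes that averaged 100 or more counts. On the TPM scale the median of those 12062 genes was -0.11, so a TPM ratio near that value is no difference from the typical gene.

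Of the 8 genes, 7 were higher in replicate 2, against 49.6% of all filtered genes. Their median log2 ratio was 0.38, and that of all filtered genes was -0.003. Over 1.5-fold higher in replicate 2 were 2 genes, Dpt and Dpep1, against 4.22% of all, and 0 were over 1.5-fold lower, against 8.09% of all. Counted by TPM, 6 of the 8 were higher in replicate 2, and by the TPM of the second quantification 5 were. No share of all genes on either TPM scale is given beside these counts. In the first quantification the median log2 ratio by TPM of genes averaging 100 or more counts was -0.11, not near 0. With 1 library on each side these are descriptions of the libraries, and a reference group for a test does not exist here.

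**Figure D2:**
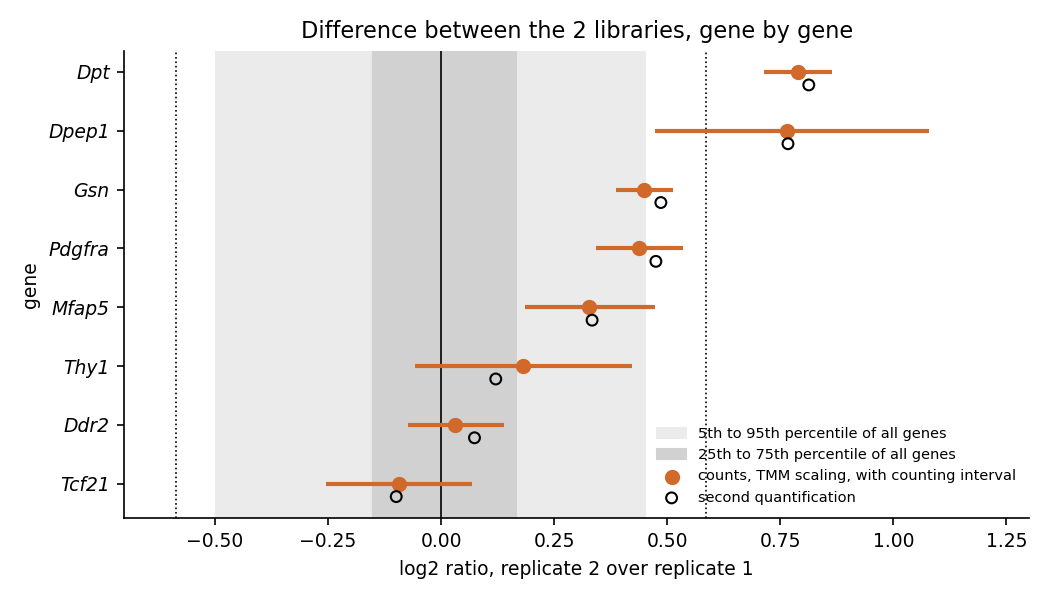
Log2 ratio of replicate 2 over replicate 1 for each of the 8 genes (orange points, TMM-scaled counts, with a 95% interval for counting error only) and from the second quantification (open points). The dark and light bands hold the 25th to 75th and the 5th to 95th percentile of the genes that averaged 100 or more counts, and dotted lines mark 1.5-fold; Dpt (0.79) and Dpep1 (0.77) lie past the line, and Tcf21 (-0.09) and Ddr2 (0.03) lie inside the dark band.

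The receptor genes come first. Pdgfra (chr5:75152292-75198215) encodes the receptor through which PDGF ligands drive growth of fibroblasts and their precursors. It had 1482 expected counts in replicate 1 and 2176 in replicate 2, or 11.83 and 16.39 TPM, a mean of 14.1 ± 3.22 TPM (SD, n = 2). Replicate 2 was the higher one, by a log2 ratio of 0.44, which is 1.35-fold with a 95% counting interval of 1.27 to 1.45. That is larger than the ratio of 92.6% of all filtered genes. This interval, like every other here, reflects the number of reads alone, and PCR copies of 1 molecule make it too narrow.

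The genes for the ligands and the sister receptor had smaller ratios than Pdgfra. Pdgfrb, which marks pericytes as well as fibroblasts, was at 24.62 and 23.59 TPM, with a log2 ratio of 0.07. Of the 5 genes in the list of PDGF ligands and Pdgfrb, all were expressed, 3 were higher in replicate 2, and the median log2 ratio was 0.07. Pdgfa and Pdgfb, the classical ligand chains, led the ligands at 24.7 ± 0.247 and 21.1 ± 0.311 TPM, and Pdgfd followed at 3.89 ± 0.424 TPM (SD, n = 2). The level of Pdgfra was thus below that of Pdgfrb in both libraries, at 0.480 times it in replicate 1 and 0.695 times in replicate 2.

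Ddr2 (chr1:169972307-170110762) encodes a receptor tyrosine kinase that is activated by fibrillar collagen. It was at 1362 and 1510 expected counts, or 11.53 and 10.22 TPM, a mean of 10.9 ± 0.926 TPM (SD, n = 2). By TMM-scaled counts its log2 ratio was 0.03, a fold of 1.02 with an interval of 0.95 to 1.10, and its sign turned with the scaling: it was -0.03 by library totals and -0.17 by TPM. No direction can therefore be given for Ddr2. Ddr1, the discoidin receptor typical of epithelia, was at 47.15 and 47.57 TPM, which is 4.09 and 4.66 times the level of Ddr2 in the same libraries.

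The genes for the collagens that DDR2 binds had larger ratios than Ddr2. Of 7 genes in the list of Ddr1 and collagens, 6 passed the filter and all 6 were higher in replicate 2, with a median log2 ratio of 0.54. Col3a1, the collagen of distensible tissue, was at 467 and 693 TPM (log2 ratio 0.64). Col1a1 and Col1a2, the chains of type I collagen, had means of 357 ± 68.0 and 237 ± 54.9 TPM and log2 ratios of 0.50 and 0.57. Col5a1, which helps to start fibrils, was at 70.6 ± 10.1 TPM with a log2 ratio of 0.41. The cartilage collagen genes Col2a1 and Col10a1 were under 1 TPM, at 16 and 60 counts and at 0 and 2 counts.

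Thy1 (chr9:44043384-44048579) encodes a surface glycoprotein anchored by a lipid, which binds integrins and syndecan-4 and is also made by T cells and neurons. It had 261 and 321 expected counts, or 7.38 and 7.89 TPM, a mean of 7.64 ± 0.361 TPM (SD, n = 2). The values lie close together. Its log2 ratio was 0.18, a fold of 1.13 with an interval of 0.961 to 1.34, so the difference is within counting error. The T cell list was near 0, with 0 of 6 genes expressed and a summed level of 0.730 TPM in replicate 1 and 1.5 TPM in replicate 2. The neuron genes Snap25 and Th, which define neurons, had 0 counts in replicate 1 and 2 in replicate 2.

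Among the partners of Thy1, 7 of 8 were expressed and 6 of 8 were higher in replicate 2, with a median log2 ratio of 0.16. Itgb1, the shared beta chain of many integrins, led at 265 ± 24.4 TPM, followed by Itga5 at 55.0 ± 6.40, Itgb5 at 31.7 ± 0.877 and Itgav at 24.9 ± 1.33 TPM (SD, n = 2).

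Tcf21 (chr10:22817281-22820174, minus strand) is the transcription factor of the set. It had 627 and 637 expected counts, or 21.61 and 18.68 TPM, a mean of 20.1 ± 2.07 TPM (SD, n = 2). It was the 1 gene of the 8 that was lower in replicate 2, by TMM-scaled counts with a log2 ratio of -0.09, and it stayed lower under each other scaling and in the second quantification. The fold of 0.937 has an interval of 0.838 to 1.05, so the difference is within counting error. The ratio of Dpt to Tcf21, which no scaling of the library alters, was 2.51 in replicate 1 and 4.59 in replicate 2. Its antisense neighbour Gm10824 had 21 and 45 counts, and whether the counting used strand is not given in the sources used here.

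TCF21 binds DNA in pairs with E proteins, and Id proteins block such pairs by holding the E protein. Of 16 genes for E proteins, Id proteins and relatives of Tcf21, 13 were expressed, and 10 of the 14 that passed the filter were higher in replicate 2, with a median log2 ratio of 0.15. The E protein genes Tcf4 and Tcf12 were at 94.2 ± 14.2 and 35.5 ± 1.61 TPM, and their log2 ratios of -0.04 and 0.05 were as small as that of Tcf21. Id3 was at 41.2 ± 0.163 TPM and Hand2, a heart and neural crest factor, at 31.3 ± 2.89 TPM (SD, n = 2). Tcf23, Tcf24 and Hand1 were under 1 TPM.

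Dpt (chr1:164796644-164824266) encodes dermatopontin, a small secreted protein that binds decorin and collagen. It had 2143 expected counts in replicate 1 and 4014 in replicate 2, or 54.29 and 85.73 TPM, a mean of 70.0 ± 22.2 TPM (SD, n = 2). Replicate 2 was higher by a log2 ratio of 0.79, or 1.73-fold with an interval of 1.64 to 1.82. That ratio is above those of 98.2% of all filtered genes. The level was higher than that of 91.3% of the 11867 expressed protein-coding genes. It was the largest ratio of the 8, and the second quantification gave 0.81. Dpt has a single annotated transcript.

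The proteoglycans that dermatopontin works with were high in the same library. All 6 genes of the list of its partners and the small proteoglycans were higher in replicate 2, with a median log2 ratio of 0.47. Dcn, for decorin, was at 111 and 153 TPM with a log2 ratio of 0.58, and Bgn, for biglycan, was at 104 and 131 TPM with 0.38. Lum and Tnxb, which also bind collagen fibrils, were at 36.3 ± 5.93 and 20.4 ± 3.32 TPM with log2 ratios of 0.46 and 0.47.

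Mfap5 (chr6:122505845-122529290) encodes a glycoprotein of microfibrils, the fibrillin threads on which elastin is laid down. It had 691 and 941 expected counts, or 24.98 and 27.07 TPM, a mean of 26.02 ± 1.48 TPM (SD, n = 2). By counts replicate 2 was higher by a log2 ratio of 0.33, or 1.26-fold with an interval of 1.14 to 1.39, while its TPM ratio was 0.12. All 6 of the other microfibril and elastic fibre genes were higher in replicate 2, with a median log2 ratio of 0.64. Within that list Mfap2, the sister of Mfap5, had nearly its level, at 0.964 and 1.01 times Mfap5, and a log2 ratio of 0.31. Fbn1 and Fbn2, the fibrillin genes, were at 98.1 ± 4.24 and 27.8 ± 1.29 TPM with log2 ratios of 0.23 and 0.22. Eln, for elastin, differed most among the genes named from this list, at 262 and 474 TPM with a log2 ratio of 0.98.

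Gsn (chr2:35256380-35307892) encodes gelsolin, which cuts and caps actin filaments inside cells and in a secreted form clears actin from the blood. It had 3517 and 5206 expected counts, or 59.08 and 71.64 TPM, a mean of 65.4 ± 8.88 TPM (SD, n = 2). Replicate 2 was higher by a log2 ratio of 0.45, or 1.37-fold with an interval of 1.31 to 1.43. That ratio is above those of 92.9% of all filtered genes. In the rest of the gelsolin family 4 of 6 filtered genes were higher in replicate 2, and the median log2 ratio was 0.03. Svil, for supervillin, led them at 107 ± 5.37 TPM, and Flii was at 49.6 ± 6.87 TPM, with log2 ratios of 0.04 and -0.02. Vil1 and Avil, the villin genes of gut and nerve, were under 1 TPM.

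Dpep1 (chr8:123186242-123201812) encodes a membrane dipeptidase that splits the leukotriene LTD4 and small peptides. It had 142 and 263 expected counts, or 3.00 and 4.85 TPM, a mean of 3.93 ± 1.31 TPM (SD, n = 2), the lowest of the 8. Replicate 2 was higher by a log2 ratio of 0.77, or 1.70-fold with a wide interval of 1.39 to 2.11. The ratio of Dpt to Dpep1 was 18.1 in replicate 1 and 17.7 in replicate 2, so both genes differed between the libraries by nearly the same factor. The value is uncertain in level, because the readthrough gene Gm20388 overlaps Dpep1 on the same strand and the authors' counting could have split reads between them; Gm20388 had 276 and 269 counts. Of the other dipeptidases and leukotriene enzymes, 3 of 7 were expressed, led by Ggt5 at 3.96 ± 0.622, Alox5ap at 3.65 ± 0.658 and Alox5 at 3.17 ± 0.481 TPM (SD, n = 2). Dpep2 had 7 and 6 counts and Dpep3 had 0 in both libraries, so Dpep1 had the most counts of the 3 dipeptidase genes.

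The transcripts of the 8 genes numbered 41. Within each quantification the same transcript led in both libraries for 7 of the 8 genes, and for 5 genes (Pdgfra, Tcf21, Dpt, Thy1 and Dpep1) it led in all 4 tables. Transcripts of 1 gene share most of their sequence, so these shares are estimates. Tcf21-201 held 96.0% ± 1.45 of the Tcf21 TPM and Dpep1-201 82.2% ± 3.63 of that of Dpep1 (SD, n = 2).

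Gsn was the gene with a nearly even split between start sites. The 5 transcripts that begin between chr2:35256380 and 35256449 held 54.0% of its TPM in replicate 1 and 49.7% in replicate 2. The 2 that begin at or after 35282380 held 46.0% and 50.4%, a mean of 48.2% ± 3.10 (SD, n = 2). In the second quantification the downstream share was 44.2% and 45.8%. The upstream form Gsn-205 has 731 codons, the length of the cytoplasmic protein, and the downstream form Gsn-201 has 780 codons, that of the secreted one. The start of the coding sequence shows how they differ, with start codons in capitals, the last of them the ATG at which Gsn-205 begins.
Gsn-201 coding start: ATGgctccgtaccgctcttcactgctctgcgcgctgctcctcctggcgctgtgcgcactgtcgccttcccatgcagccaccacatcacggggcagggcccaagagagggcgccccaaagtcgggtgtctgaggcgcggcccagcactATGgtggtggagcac
Gsn-207 coding start: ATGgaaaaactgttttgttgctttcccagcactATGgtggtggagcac

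Before the shared ATG the coding sequence of Gsn-201 has 147 bases, or 49 codons, which include the signal peptide, and that of Gsn-207 has 33 bases, or 11 codons. Gsn-207 was where the quantifications parted. It held 0.339% and 0.349% of the Gsn TPM in the first, and 19.9% and 12.7% in the second. The mean share of Gsn-205 was 49.4% in the first and 37.3% in the second. The share of the secreted form was 48.0% ± 2.87 in the first and 44.6% ± 1.44 in the second (SD, n = 2).

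Pdgfra had 9 transcripts. The 2 that encode the full receptor of 1089 codons held 67.7% ± 6.27 of its TPM, and 66.6% ± 6.45 in the second quantification (SD, n = 2). The 3 shorter forms Pdgfra-205, Pdgfra-207 and Pdgfra-208, with 790 or 481 annotated codons, held 21.3% ± 3.49 and 15.5% ± 4.62. Pdgfra-207, with 481 codons, is annotated as non-stop decay, a reading frame without a stop codon. Its mean share was 15.5% in the first and 9.67% in the second. Pdgfra-209, an incomplete model of 139 codons, was at 0 and 1.52% in the first quantification and at 23.7% and 7.58% in the second.

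Mfap5 differed in its use of 2 short coding exons, which the leading forms keep or leave out whole. Mfap5-207 has 164 codons and both exons, Mfap5-202 lacks one of them, and Mfap5-201 lacks the other. Their sequences on the plus strand are given because the forms differ by these bases alone within the coding sequence.
Mfap5 exon at chr6:122521893-122521928, lacking in Mfap5-201: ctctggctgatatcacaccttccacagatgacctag
Mfap5 exon at chr6:122524487-122524510, lacking in Mfap5-202: ctggtgacaaaaatgctactgcag

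The exons add 12 and 8 codons. Mfap5-207 held 54.1% and 68.2% of the Mfap5 TPM, and Mfap5-202 held 30.8% and 23.4%. In the second quantification both were at 42.3% on average, so their order was not settled. Together with Mfap5-201 they made up 97.1% ± 0.490 in the first and 93.0% ± 3.34 in the second (SD, n = 2).

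Ddr2 and Thy1 had the transcripts that moved most between quantifications. Ddr2-202, which begins at chr1:170088944 inside the gene, held 35.8% ± 5.86 of the Ddr2 TPM in the first and 1.70% ± 2.32 in the second, where Ddr2-205 led with 68.9%. As a share of expected counts in the first, Ddr2-202 was at 58.9%. All 3 forms with the 854 codons of the full receptor together held 67.7% ± 0.504 in the first and 95% ± 5.0 in the second (SD, n = 2). The RefSeq promoter entry for Ddr2 lies at the start of Ddr2-202. Thy1-201, with the full 162 codons, held 83.7% ± 2.18 in the first and 51.3% in the second, where the shorter Thy1-206 held 35.7%.

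**Figure D3:**
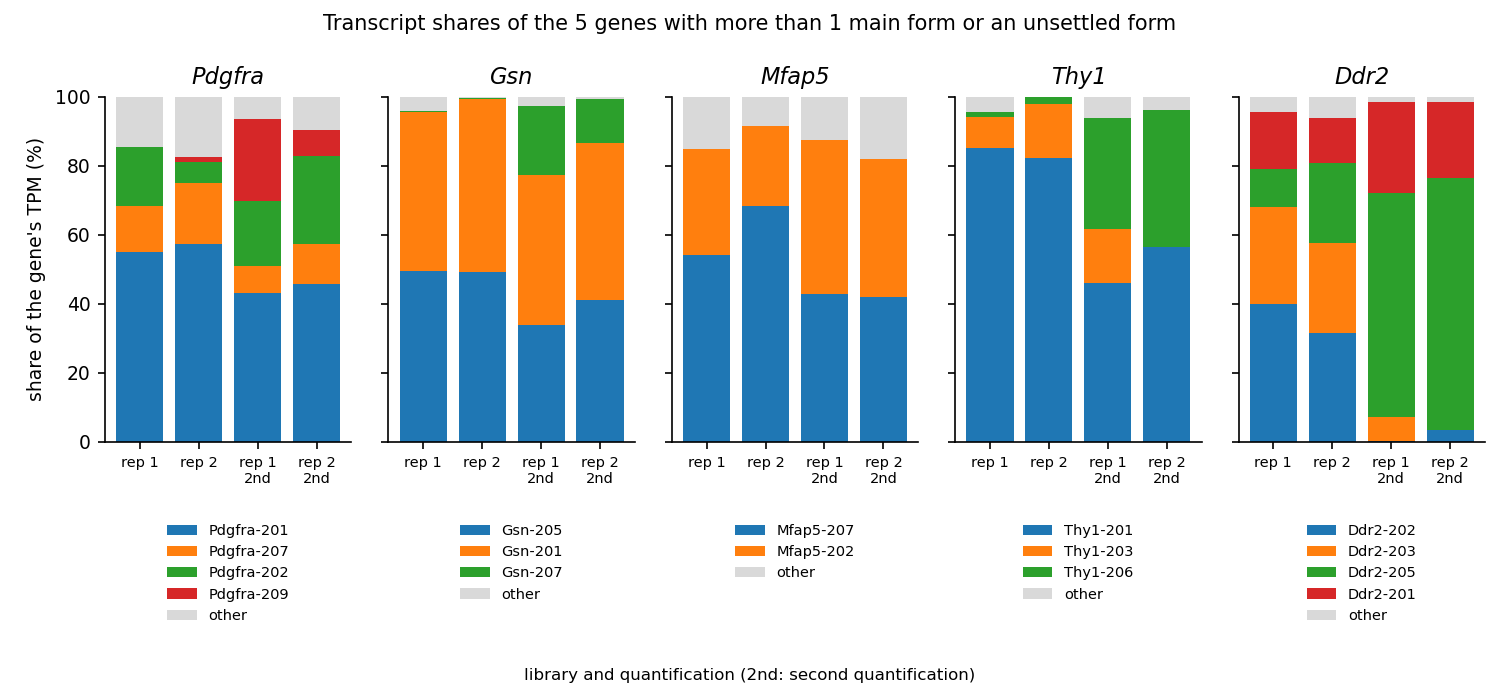
Share of the gene's TPM held by each transcript, in percent, for Pdgfra, Gsn, Mfap5, Thy1 and Ddr2. The 4 bars per gene are replicates 1 and 2 in the first quantification and then in the second; transcripts that average at least 10% in either are coloured and the rest are grey. In Gsn the downstream form Gsn-201 (orange) stays between 43.6% and 50.01% in all 4 bars, while in Ddr2 the leading colour changes between quantifications.

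Gene levels were also compared between the quantifications. The second gave a higher TPM for 7 of the 8 genes and a lower one for Ddr2, at 0.951 times the first. Thy1 was at 18.2 and 15.9 TPM in the second, 2.24 times its first mean, and Mfap5 at 40.8 and 50.2 TPM, 1.75 times. These 2 were over 1.5-fold higher in both libraries, as were 22.9% of all protein-coding genes, and the median protein-coding gene was at 1.36 times. The count of members is near that background.

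Genes of other lists were set beside the 8 to show what moved with them. Of 14 other fibroblast genes, 13 were expressed and 13 were higher in replicate 2, with a median log2 ratio of 0.49. Postn, for periostin, which is made by fibroblasts of growing and injured heart, was at 252 and 302 TPM with a log2 ratio of 0.41. Of 10 myofibroblast and matrifibrocyte genes, 9 were higher in replicate 2, with a median of 0.50. Acta2, smooth muscle actin, was at 341 and 631 TPM with a log2 ratio of 0.97, Tnc at 15.7 ± 2.13 TPM with 0.42 and Lox, an enzyme that crosslinks collagen, at 11.4 ± 2.79 TPM with 0.63, while Cilp was under 1 TPM. These lists share some genes with the collagen and proteoglycan lists.

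Epicardial genes, 9 of 9, were higher in replicate 2, with a median log2 ratio of 0.32 and a summed level of 73.2 and 82.7 TPM. The most abundant of them were Aldh1a2, which makes retinoic acid, at 22.1 ± 4.21 TPM, Msln at 15.9 ± 0.283 and Upk3b at 10.1 ± 1.01 TPM (SD, n = 2). The median was 0.17 for 8 mural genes, 0.08 for 7 endothelial genes and -0.04 for 7 cardiomyocyte genes, against 0.38 for the fibroblast identity genes. Within the mural list 7 of 8 genes were higher in replicate 2 by TMM-scaled counts. The summed level was 615.5 and 913.4 TPM, of which Acta2 alone made up 341 and 631 TPM. Its smooth muscle genes had ratios above the fibroblast median of 0.38: Acta2 at 0.97, Myh11, smooth muscle myosin, at 0.51 and Tagln, transgelin, at 0.49. Rgs5 and Abcc9, pericyte genes, had 0.20 and 0.13. The part of smooth muscle in the difference of the fibroblast genes was not tested. Differences between these lists were not tested, since each rests on the same pair of libraries. All 6 cell cycle genes were higher in replicate 2, with a median of 0.45. Top2a was the most abundant, at 58.6 and 72.9 TPM, and Ccnb1 had the largest log2 ratio, at 0.80. The part of dividing cells in the difference of the fibroblast genes was not tested.

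Adipocyte genes were mixed. Of 6, only Cidea and Pparg passed the filter on low counts, with log2 ratios of 0.16 and 0.23, a median of 0.19 and 0 past 1.5-fold. Genes near 0 in replicate 1 differed more. Ucp1, the uncoupling protein of brown fat, had 396 counts in replicate 2 and 0 in replicate 1. Plin1, for perilipin, had 0 and 116 counts, and Adipoq, for adiponectin, had 1 and 59. The summed level of the 6 adipocyte genes was 29.8 TPM in replicate 1 and 44.9 TPM in replicate 2, and most of it was Cidea, at 26.6 and 27.1 TPM. In replicate 1 the defining genes Ucp1 and Plin1 were at 0. Fat tissue also holds cells that express Dpt, Pdgfra and collagen genes, and its part in the higher values of replicate 2 was not tested.

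**Figure D4:**
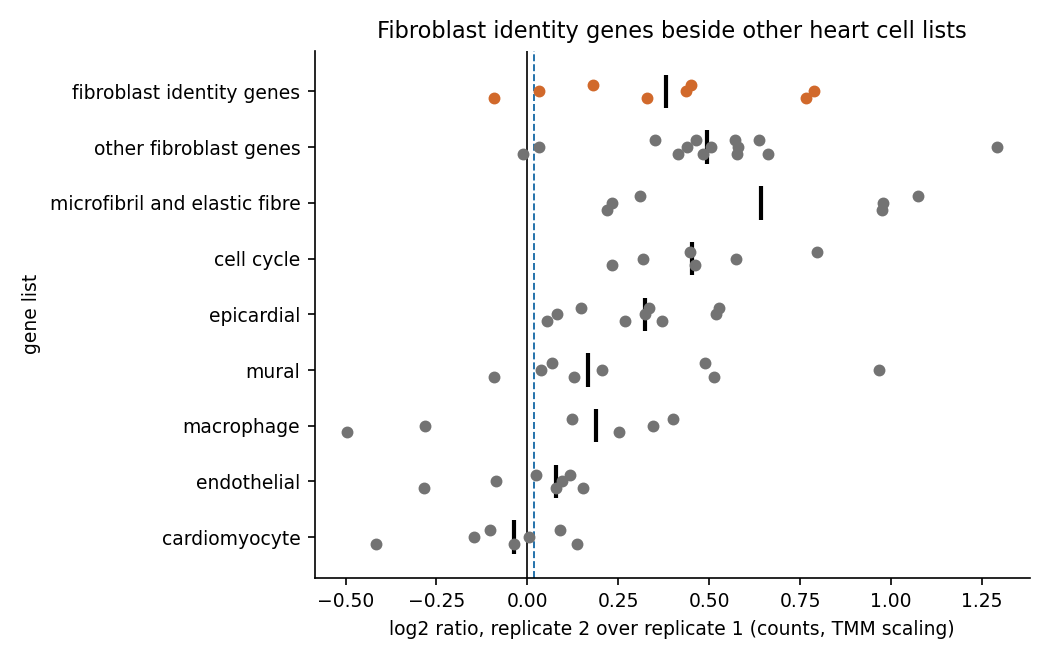
Log2 ratio of replicate 2 over replicate 1 for single genes (points) of the 8 fibroblast identity genes (orange) and of other gene lists (grey), with the median of each list as a black bar. The dashed line is the median of genes with at least 100 counts, at 0.02; the fibroblast median lies at 0.38, the cardiomyocyte median at -0.04, and some genes are in more than 1 list.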

How the data were processed

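Both libraries measured total RNA of heart. Gene and transcript tables deposited by the authors give expected counts and TPM under RSEM's column names, per the file headers, and notes deposited with the files give build mm10 and annotation GENCODE M21. Each library also has a transcript table of estimated counts and TPM, deposited under kallisto's column names and made from 1 read file; it is called the second quantification. Aligner, versions and settings: not given in the sources used here. TPM was computed by the authors over all rows, spike-ins included, and reads of the F1 hybrid were quantified against the reference strain, so allele effects were not tested.

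Expected counts were rounded, filtered with filterByExpr and scaled by TMM in edgeR 4.0.16 (R 4.3.3, prior count 2). Library sizes leave out spike-ins and rows that name no gene. Ratio intervals are exact binomial at 95%. Called means past 1.5-fold. TPM ratios used a pseudocount of 0.1. DESeq2 1.42.0 size factors were an alternative. Other steps used Python 3.11.15, pandas 2.3.3, NumPy 2.4.6, SciPy 1.17.1 and Matplotlib 3.10.9. The ratio step was tested on simulated data. The second table was summed per gene.

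The 8 genes and the lists were chosen with earlier results of these data known. Named genes are all 8, up to 4 of the most abundant genes of each pathway list and up to 3 of each cell type list, those under 1 TPM in pathway lists or at 0 in cell type lists, and transcripts with at least 10% of a gene's TPM. Not all of these are printed. Ddr1, Adipoq, Myh11, Tagln, Mfap5-201, the minor Pdgfra forms and the overlapping genes were named after their values were seen.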

Additional observations from a re-analysis of the deposited data

How the results depend on the processing

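The number of fibroblast identity genes higher in replicate 2 was 7 under DESeq2 size factors, spike-in totals and the scaled counts of the second quantification, and 6 under library totals and TPM with either pseudocount. The background moved as well. Of 16271 filtered genes, 8065 were higher under TMM, 8135 under DESeq2 size factors, 9082 under spike-in totals and 6431 under library totals. In the second quantification 8625 were, from its own filtered set, and no such count was made by TPM. For the fibroblast identity genes the median log2 ratio of 0.38 was 0.20 by TPM with a pseudocount of 0.1 and 0.19 with a pseudocount of 1, and with the latter 1 gene rather than 2 passed 1.5-fold. The median of mean TPM, 17.1, was 21.4 in the second quantification and 38.8 when rescaled over nuclear protein-coding genes, and 16.7 and 17.5 when 1 replicate was left out. The Gsn downstream share of 48.2% was 45.0% in the second quantification. The cause was not tested for these. Without the low-count filter, 12500 genes in place of 8065 were higher in replicate 2. Over 1.5-fold higher were 2424 in place of 687, and over 1.5-fold lower 4747 in place of 1316. More genes were counted without the filter, and the cause of the larger numbers was not tested. All 8 genes kept to the threshold of 1 TPM under the second quantification and the rescaling, and 7 passed a threshold of 5 TPM.

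No paired analysis was possible because both libraries belong to 1 group. With 2 libraries, no difference between them can be assigned to animal, dissection or library. Depth limits Dpep1 and Thy1 most, with 142 and 261 counts in replicate 1.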

Other observations

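Some genes of other tissues were unequal between the libraries. Sftpc, a lung surfactant gene, had 33 counts in replicate 1 and 12 in replicate 2, and Scgb1a1, an airway secretory gene, had 10 and 0. The muscle regulators Myod1 and Pax7 had 0 counts in both libraries. Among 6 macrophage genes 4 were higher in replicate 2, with a median log2 ratio of 0.19; Csf1r was at 6.53 and 8.91 TPM and Lyz2 at 15.7 and 10.2 TPM.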
